A study of Mus musculus with 12 samples.

Results

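Collagens are the main fibrous proteins of connective tissue, and each collagen molecule is a triple helix of chains encoded by separate genes. The genes described here are the 36 collagen chain genes measured by 58 probe sets on Affymetrix Mouse 430A arrays, out of 12393 genes and 20380 probe sets assigned to exactly 1 gene. A gene was taken as a member when the platform annotation gave a probe set that gene alone, with a symbol made of Col, a type number, the letter a and a chain number. Of 44 such symbols in the RefSeq gene table, 8 were not analysed here. By structure the members were 9 fibrillar chains, 3 chains of the microfibrillar type VI, 9 chains of basement membranes and their borders, 2 short network-forming chains, 9 fibril-associated chains with interrupted triple helices (FACIT), 3 membrane-spanning chains and Col26a1.

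RNA came from hind limb muscle cells of C57BL/6J mice aged 8 to 12 weeks, in 3 groups of 4 arrays. Activated satellite cells were cells that bound the satellite cell antibody SM/C-2.6 and were then kept for 4 days in culture with 20% serum and basic fibroblast growth factor at 2.5 ng/ml, after which over 99% were MyoD-positive. Quiescent satellite cells were antibody-positive cells taken directly after sorting, over 97% of them Pax7-positive. Non-myogenic cells were negative for SM/C-2.6 and for the leukocyte antigen CD45, were likewise taken directly after sorting and held under 1% myogenic cells. Only the activated cells were cultured, so activation and culture cannot be told apart. The comparisons ask what sets quiescent satellite cells apart from their activated descendants and from the other cells of the muscle. All 3 comparisons use the same 12 arrays, so each shares arrays with the other 2.

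In skeletal muscle, fibrillar types I, III and V form the fibres of the connective tissue sheaths, and the type VI microfibrils link these fibres to the basement membrane of each muscle fibre. Type IV collagen forms the sheet-like network of that basement membrane, under which satellite cells lie. FACIT collagens sit on the surface of fibrils. In mice, type VI collagen belongs to the satellite cell niche, and type V collagen made by satellite cells has been described as a signal that holds them in quiescence through the calcitonin receptor.

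Signals were brought to a common level per array and are given as scaled signal, with the 4 arrays of a group in the order of their labels. Log2 changes are on the scale log2(signal + 14.696) with their standard error (SE), and understate the change of weak signals. A gene was called at a limma adjusted p under 0.05 over the 7960 genes whose mean signal reached the filter of 47.028. Before scaling, the trimmed mean signal was 323.2 to 501.5 on the 5 arrays made with a small-sample labelling kit (activated and quiescent arrays 1 and 2, non-myogenic array 1) and 160.4 to 235.6 on the 7 made with a two-cycle kit, and the kit was a term of the fit. The 3'/5' ratio of the Gapdh control probe sets was 1.75 ± 0.411 in activated, 4.02 ± 0.969 in quiescent and 3.87 ± 0.916 in non-myogenic cells (SD, n = 4 each). That of beta-actin was 1.61 ± 0.346 in activated, 2.63 ± 1.04 in quiescent and 1.96 ± 0.374 in non-myogenic cells. The Gapdh ratios of activated cells lay below those of both other groups, while the beta-actin ratios of all 3 groups overlapped, and the part of these ratios in the changes below was not tested. No label states if replicate arrays were separate mice or cultures. The p-values thus cover the spread among these arrays alone, and it may be technical.

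The summed signal of 8 satellite cell markers was 2169 to 3483 in activated, 15701 to 17970 in quiescent and 1005 to 1540 in non-myogenic cells, with Pax7 at 109, 125, 65.0 and 61.8 in activated, 1004, 1899, 743 and 640.2 in quiescent and 6.66, 3.01, 1.24 and 5.39 in non-myogenic cells. In non-myogenic cells Pax7, Calcr and Myf5 averaged less than the pseudocount, while 4 of the 8 reached the filter. Among these Chodl was 397 to 637 in non-myogenic cells, above its 1.85 to 12.2 in activated cells. Summed markers of fibroblasts, tendon cells and endothelial cells moved with the groups, but not every single marker did. Mean signals in activated, quiescent and non-myogenic cells were 114, 113 and 181 for the fibroblast marker Tcf7l2. They were 56.8, 25.2 and 43.6 for the tendon cell marker Scx and 197, 1934 and 571 for the mural cell marker Notch3. The summed signal of 11 fibroblast markers was 290 to 516 in activated, 8005 to 23424 in quiescent and 42847 to 73276 in non-myogenic cells. That of 7 tendon cell markers was 61 to 134 in activated, 614 to 1260 in quiescent and 23780 to 42519 in non-myogenic cells, and that of 12 endothelial markers 168 to 179, 2608 to 3222 and 12854 to 14539 in the same order. In quiescent cells 9 of the 11 fibroblast markers had a mean signal at or above the filter, among them Gsn at 2146 to 15081, Dpt at 3752 to 4361 and Dcn at 1191 to 3148, while Cd248 and Pi16 lay below it. In activated cells 6 of the 11, including Pdgfra at 1.97 to 5.96, averaged less than the pseudocount of 14.696. Sums of mural cell markers were 2358 to 5776 in activated, 8405 to 10665 in quiescent and 11519 to 24010 in non-myogenic cells, and those of 4 Schwann cell markers 83 to 125, 520 to 1537 and 865 to 1232. Sums of 12 leukocyte markers were 197 to 262 in activated, 285 to 863 in quiescent and 390 to 704 in non-myogenic cells, and those of 11 muscle fibre markers 1115 to 12737, 2393 to 8512 and 11018 to 34580. In such bulk samples fewer cells of a type and less RNA per cell cannot be told apart, and the part of these cells in the collagen signals was not tested.

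Of the 36 genes, 27 passed the filter. Just inside it lay Col20a1 and Col7a1, with mean signals of 50.69 and 56.43, and just outside it Col9a1 and Col25a1 with 37.98 and 34.45. The mean reached the filter value in all 3 groups for 12 genes, in 2 groups for 8, and for 7 genes in non-myogenic cells alone (Col2a1, Col4a5, Col11a1, Col11a2, Col12a1, Col20a1 and Col22a1). Of the 8, 5 reached it in quiescent and non-myogenic cells alone (Col1a1, Col14a1, Col15a1, Col16a1 and Col26a1). Another 2 reached it in both satellite cell groups alone (Col7a1 and Col19a1), and Col13a1 in activated and non-myogenic cells alone. The 7 were tested because of their signal in non-myogenic cells, and these 8 because of their signal in the groups named. The counts below therefore describe the tested genes and not the whole family.

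Activated cells had lower signals than quiescent cells for most of the tested chains. Of 27 genes, 20 fell, against 38.2% of all genes tested, and 2 rose (Col8a1 and Col13a1), against 31.8%. Among the 20, Col1a1, Col14a1, Col15a1, Col16a1 and Col26a1 had activated means under the filter, so their lower activated means follow from it. Likewise the lower quiescent mean of Col13a1 follows from the filter. For 19 genes every activated array lay below every quiescent array, which held for 28.6% of all genes. The median log2 change was -1.49 over the tested chains and -0.11 over all genes tested, with -1.30 on the small-sample arrays alone and -1.85 on the two-cycle arrays alone for the chains. Over all 36 members with no filter it was -0.92.

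Quiescent cells in turn had lower signals than non-myogenic cells, with 24 of the 27 tested chains lower, against 26.6% of all genes, and 2 higher (Col19a1 and Col26a1), against 26.4%. All quiescent arrays lay below all non-myogenic arrays for 22 genes, against 21% of all genes. The 7 chains tested through non-myogenic cells alone and Col13a1 had quiescent means under the filter, so their lower quiescent means follow from it. The same holds for the lower non-myogenic mean of Col19a1. The median log2 change was -1.69 for the tested chains (-1.61 on the small-sample and -1.73 on the two-cycle arrays) and 0.03 for all genes tested. Activated cells set against non-myogenic cells had 24 chains lower, against 38.3%, and 2 higher (Col19a1 and Col7a1), against 34.1%. The same 7 chains and Col1a1, Col14a1, Col15a1, Col16a1 and Col26a1 had activated means under the filter, so their lower activated means follow from it. Likewise the lower non-myogenic means of Col19a1 and Col7a1 follow from the filter. For the 24 lower chains no activated array reached a non-myogenic one, which held for 32.6% of all genes, and the median log2 change was -3.63 (-4.01 on the small-sample and -3.46 on the two-cycle arrays), against -0.07.

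**Figure D1:**
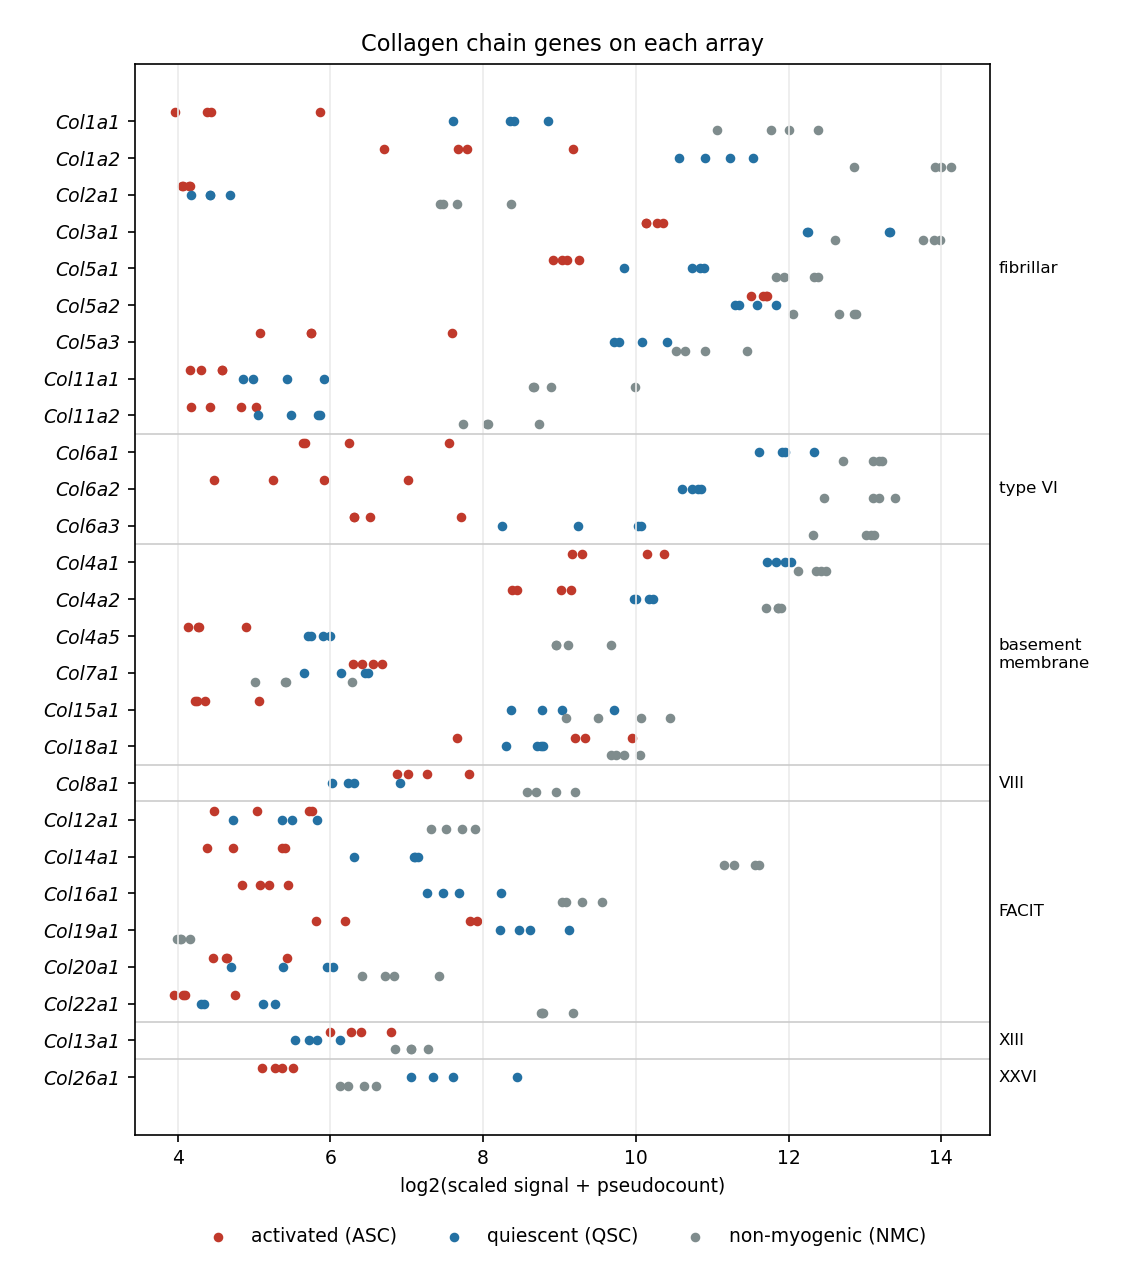
Each point is 1 array, with log2(scaled signal + pseudocount) on the x axis and the 27 tested collagen chain genes down the page by structural class (XIII, VIII and XXVI are single genes). In most rows activated arrays (red) lie left of quiescent arrays (blue), which lie left of non-myogenic arrays (grey). Col19a1 and Col26a1 have their highest points in quiescent cells.

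By the probe sets used, Col6a1 and Col6a2 had the largest falls of the 27 tested genes in activated against quiescent cells. The other Col6a2 probe set, 1426947_x_at, had a log2 change of -3.55 ± 0.22 (SE). That is a smaller fall than those of Col15a1 (-4.49), Col5a3 (-3.95) and Col1a1 (-3.65), so the rank of Col6a2 depends on the probe set. The type VI chains alpha 1, alpha 2 and alpha 3, encoded by Col6a1, Col6a2 and Col6a3, assemble into beaded microfibrils. The signal of Col6a1 (probe set 1448590_at) was 172, 61.6, 35.2 and 36.1 in activated, 3979.9, 5141, 3105 and 3827 in quiescent and 6746, 8807, 9619.6 and 9353 in non-myogenic cells. That of Col6a2 (1452250_a_at) was 114, 45.7, 23.3 and 7.54 in activated, 1829, 1544, 1797 and 1681 in quiescent and 5631, 8797, 10744 and 9355 in non-myogenic cells. Neither gene overlapped between any 2 groups.

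The log2 change of activated against quiescent cells was -5.68 ± 0.31 (SE) for Col6a1 (adjusted p = 3.48e-09) and -5.09 ± 0.38 for Col6a2 (adjusted p = 7.36e-08). Col6a3 (1424131_at) had signals of 195, 64.7, 64.5 and 76.9 in activated, 589, 289, 1033 and 1061 in quiescent and 5101, 8300.2, 8874 and 8623 in non-myogenic cells, a log2 change of -2.69 ± 0.37 between activated and quiescent cells. Activated array 1 was the highest of its group for all 3 chains. Within the kits the change of Col6a1 was -5.25 on the small-sample arrays and -6.10 on the two-cycle arrays, that of Col6a2 -4.27 on the small-sample arrays and -5.91 on the two-cycle arrays and that of Col6a3 -1.73 on the small-sample arrays and -3.64 on the two-cycle arrays. The Col6a2 group effects differed between the kits in limma's interaction test (adjusted p = 0.0429), and those of Col6a1 and Col6a3 did not pass it (0.137 and 0.13).

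Between quiescent and non-myogenic cells the 3 chains differed unequally. The log2 change was -1.23 ± 0.31 for Col6a1, -2.38 ± 0.39 for Col6a2 and -3.37 ± 0.38 for Col6a3 (adjusted p = 0.00508, 0.000212 and 7.45e-06), so that mean quiescent signals were 46.5%, 19.8% and 9.62% of the non-myogenic means. Col6a1 was the least and Col6a3 the most reduced. On the small-sample arrays, with 1 non-myogenic array, the Col6a1 change was -0.58 and did not pass (adjusted p = 0.458), and on the two-cycle arrays it was -1.42.

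To ask whether chains of 1 protein changed unequally, the difference between their log2 signals on each array was compared between groups with a two-sided exact permutation test, for 5 pairs of chains in 2 comparisons. The kit is no term of this test, kit values are given for only some of the single chains and steps, and the part of the kit in these differences was not tested. The smallest p that 4 arrays against 4 allow is 0.0286, which 6 of the 10 tests reached and which became 0.0476 after adjustment over the 10. Col6a1 less Col6a3 was -0.85 to -0.06 in activated, 1.57 to 4.09 in quiescent and 0.09 to 0.40 in non-myogenic cells. Both steps were among these 6, with a change of the difference of -2.99 between activated and quiescent and 2.38 between quiescent and non-myogenic cells. For Col6a1 less Col6a2 the change was -0.59 between activated and quiescent cells (adjusted p = 0.143) and 1.18 between quiescent and non-myogenic cells (adjusted p = 0.0476). With the other Col6a2 probe set, 1426947_x_at, the first of these was -2.13 and the second 1.17, each at an unadjusted p of 0.0286, so the first depends on the probe set.

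Col6a1 and Col6a2 lie next to each other on chromosome 10. Their promoter windows were taken from RefSeq on GRCm38.p6, from 250 bases before to 50 bases after the annotated start. They are shown because these genes had the largest falls by the probe sets used. Col6a1 was the only one of 27 members with a window to hold the AP-1 type motif TGANTCA, found in 7.81% of all 32851 windows, and Col6a2 holds GGGCGG, found in 35.7% of all windows and in 16 of the 27. Both strands were searched, and a match is a stretch of letters, not a shown binding site. Here and below the share of all windows counts single windows, while a member counts if any of its windows holds the motif. These are unlike measures. Capitals mark the match in Col6a1 and the GGGCGG matches in Col6a2, written as CCGCCC on this strand, with 2 of the 3 overlapping.
Col6a1 (chr10:76725995-76726294, minus strand): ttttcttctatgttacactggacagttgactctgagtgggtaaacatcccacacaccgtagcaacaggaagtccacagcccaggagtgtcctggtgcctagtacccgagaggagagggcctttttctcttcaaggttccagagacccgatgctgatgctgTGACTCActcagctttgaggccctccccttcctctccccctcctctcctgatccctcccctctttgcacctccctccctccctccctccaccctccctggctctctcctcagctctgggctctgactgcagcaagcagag
Col6a2 (chr10:76623355-76623654, minus strand): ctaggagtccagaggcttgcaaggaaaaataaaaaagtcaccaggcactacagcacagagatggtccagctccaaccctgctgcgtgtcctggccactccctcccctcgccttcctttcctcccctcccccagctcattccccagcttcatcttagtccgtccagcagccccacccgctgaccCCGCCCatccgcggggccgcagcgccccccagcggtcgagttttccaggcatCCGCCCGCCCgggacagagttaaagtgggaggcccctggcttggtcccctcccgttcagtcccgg

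The fibrillar chains followed, with 7 of the 9 lower in activated than in quiescent cells and Col2a1 and Col5a2 not called, beside 38.2% lower among all genes tested. All 9 were lower in quiescent than in non-myogenic cells, beside 26.6% of all genes tested. Among them Col2a1, Col11a1 and Col11a2 were tested through their non-myogenic signal alone, so their lower quiescent means follow from the filter. The lower activated mean of Col1a1, which lay under the filter, follows from it as well. Class medians of the log2 change were -1.49 between activated and quiescent and -2.55 between quiescent and non-myogenic cells.

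Col1a1 and Col1a2 encode the alpha 1 and alpha 2 chains of type I collagen, the main fibril of tendon and bone. The Col1a1 signal (1455494_at) was 43.2, 6.89, 6.22 and 0.87 in activated, 448, 179.8, 326 and 312 in quiescent and 3485, 4087, 2118 and 5315 in non-myogenic cells. The Col1a2 signal (1450857_a_at) was 567, 89.3, 189 and 207 in activated, 1909, 1499.9, 2381 and 2937 in quiescent and 7404, 15458, 17954 and 16356 in non-myogenic cells. The groups did not overlap for either gene, activated array 1 was the highest of its group for both, and non-myogenic array 1 had the lowest Col1a2 signal of its group. Deposited Col1a2 signals, before scaling, were 14481 to 16387 on the non-myogenic arrays, where the highest signal of any probe set was 16594.5 to 19017, so this gene lay near the top of the range. Those of Col3a1 were 12380 to 16121 on the same arrays. The scaling brought non-myogenic array 1 down the most of the 4.

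Between activated and quiescent cells the log2 change was -3.65 ± 0.38 for Col1a1 and -3.22 ± 0.41 for Col1a2 (adjusted p = 1.68e-06 and 9.77e-06). Within the kits Col1a1 changed by -3.08 on the small-sample arrays and -4.21 on the two-cycle arrays, and Col1a2 by -2.79 on the small-sample arrays and -3.65 on the two-cycle arrays. Between quiescent and non-myogenic cells the change was -3.57 ± 0.39 and -2.55 ± 0.41 (adjusted p = 5.29e-06 and 0.000183). The other probe sets moved the same way by other sizes. Col1a1 at 1423669_at, with 1.06 to 6.89 in activated, 29.6 to 103 in quiescent and 3548 to 5787 in non-myogenic cells, changed by -2.13 ± 0.26 between activated and quiescent and -5.84 ± 0.27 between quiescent and non-myogenic cells. Col1a2 at 1423110_at changed by -2.85 ± 0.36 and -4.18 ± 0.37 for the same steps. The Col1a2 call was lost on the small-sample arrays alone, where the change was -2.12 (adjusted p = 0.128). The difference Col1a1 less Col1a2 did not pass in either step (-0.43 and -0.83, adjusted p = 0.343 and 0.159). With other probe sets its change between quiescent and non-myogenic cells ran from -3.16, at an unadjusted p of 0.0286 for 1423669_at less 1450857_a_at, to 0.93, and between activated and quiescent cells from -0.80 to 1.09, so neither size nor direction of this difference is settled.

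The Col1a2 window is shown for type I collagen, the chain whose fall was among the 6 largest and which has a window in the table. It holds CCAAT, found in 37.4% of all windows and in 12 of the 27 members with a window, and GGGCGG, both at 2 positions, with capitals at each and CCAAT written once as ATTGG.
Col1a2 (chr6:4505368-4505667, plus strand, GRCm38.p6): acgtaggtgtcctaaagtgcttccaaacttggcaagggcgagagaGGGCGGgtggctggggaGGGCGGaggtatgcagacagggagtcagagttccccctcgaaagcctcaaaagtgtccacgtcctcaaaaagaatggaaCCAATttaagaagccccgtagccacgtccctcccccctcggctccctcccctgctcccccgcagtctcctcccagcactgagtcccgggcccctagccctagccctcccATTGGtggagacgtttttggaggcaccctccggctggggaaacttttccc

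Col3a1, the single chain of type III collagen of the muscle's fine fibrous sheaths, fell in activated cells. Its signal (1427883_a_at) was 1111, 1287, 1230.4 and 1112 in activated, 4813, 4865, 10266 and 10200.3 in quiescent and 6245, 13864, 15349 and 16091 in non-myogenic cells. The activated arrays spanned a narrow range below all others, while quiescent arrays 1 and 2, of the small-sample kit, had less than arrays 3 and 4. The log2 change between activated and quiescent cells was -2.56 ± 0.22 (adjusted p = 2.57e-07), with -2.0 on the small-sample arrays and -3.11 on the two-cycle arrays. The interaction of kit and group in limma passed (adjusted p = 0.0236), but it covers all 3 groups at once and cannot be assigned to this step.

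Quiescent and non-myogenic cells overlapped for Col3a1. The log2 change of -0.60 ± 0.23 (adjusted p = 0.0386) lost its call when any 1 of quiescent arrays 1 and 2 or non-myogenic arrays 2, 3 and 4 was left out, with changes of -0.59 to -0.53 and adjusted p of 0.0693 to 0.0915. With the replicate number as a block it was -0.65 (adjusted p = 0.0838). A second Col3a1 probe set, 1427884_at, had 54.4 to 60.7 in activated, 566 to 1120.4 in quiescent and 2501 to 3599 in non-myogenic cells, with a change of -1.84 ± 0.17 (SE) for quiescent against non-myogenic cells. The size of this step therefore depends on the probe set.

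Type V collagen, which sits inside type I fibrils and limits their width, has chains encoded by Col5a1, Col5a2 and Col5a3. The Col5a3 signal (1419703_at) was 178, 39.3, 19.2 and 39.2 in activated, 1067, 1345, 866 and 829 in quiescent and 2809, 1457, 1582 and 1903 in non-myogenic cells. It fell by a log2 change of -3.95 ± 0.32 in activated against quiescent cells (adjusted p = 1.26e-07, -3.57 on the small-sample arrays and -4.33 on the two-cycle arrays), while between quiescent and non-myogenic cells it differed by a log2 change of -1.10 ± 0.32 (adjusted p = 0.0117), a call lost on the small-sample arrays (-1.22, adjusted p = 0.235). Col5a1 (1416740_at) had 471 to 595 in activated, 899 to 1879.8 in quiescent and 3635 to 5347 in non-myogenic cells, with changes of -1.49 ± 0.21 and -1.48 ± 0.21 for the 2 steps. Its other probe sets, 1416741_at and 1434479_at, changed by -2.65 ± 0.17 and -2.52 ± 0.22 between activated and quiescent and by -2.15 ± 0.17 and -1.51 ± 0.23 between quiescent and non-myogenic cells.

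Col5a2, which lies beside Col3a1 on chromosome 1, was not called between activated and quiescent cells. Its signal (1422437_at) was 3227, 2905, 3331 and 3356 in activated, 2592, 2503, 3645 and 3059 in quiescent and 4266, 6449, 7428 and 7515 in non-myogenic cells. The 2 satellite cell groups overlapped, with a log2 change of 0.13 ± 0.14 (adjusted p = 0.42, 0.26 on the small-sample arrays and 0.00 on the two-cycle arrays), and quiescent arrays lay below non-myogenic arrays by a log2 change of -1.0 ± 0.15 (adjusted p = 7.59e-05), a call lost on the small-sample arrays alone (-0.74, adjusted p = 0.084). The weaker probe set 1450625_at, at 615, 520.3, 384 and 369 in activated, 461, 622, 1360.1 and 986 in quiescent and 2080.4, 2562, 2231 and 2621 in non-myogenic cells, went the other way, with -0.75 ± 0.27 for activated against quiescent cells (adjusted p = 0.025). The direction for Col5a2 therefore depends on the probe set, and with median centring the first probe set was called higher (adjusted p = 0.0052).

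Col5a1 less Col5a2 was -2.79 to -2.41 in activated and -1.46 to -0.62 in quiescent cells, a change of the difference of -1.63 (adjusted p = 0.0476). Over the 6 combinations of their probe sets this change ran from -2.79 to -0.74, below 0 in each, and 5 of the 6 had an unadjusted p of 0.0286, the other 0.0571. Between quiescent and non-myogenic cells it was -0.45 (adjusted p = 0.122).

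Col2a1, Col11a1 and Col11a2, fibrillar chains of cartilage, were near the pseudocount in both satellite cell groups. The Col11a1 signal (1418599_at) was 9.16, 3.19, 9.26 and 5.03 in activated, 28.6, 45.3, 17.1 and 14.4 in quiescent and 1004, 388, 460.4 and 393 in non-myogenic cells. Quiescent cells differed from non-myogenic cells by -3.90 ± 0.23 for Col11a1 and -3.39 ± 0.16 for Col2a1, whose signals (1450567_a_at) were 1.99 to 3.14 in activated, 3.47 to 11.1 in quiescent and 158 to 315 in non-myogenic cells. For activated against quiescent cells the Col11a1 change of -0.89 ± 0.23 lost its call in 5 alternative settings (adjusted p of 0.0715 to 0.144). Col11a2 (1423578_at) had 3.31 to 18.0 in activated, 18.3 to 43.3 in quiescent and 199.7 to 411 in non-myogenic cells.

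Of the basement membrane chains 6 of 9 were tested, and 4 of these fell in activated cells (Col4a1, Col4a2, Col4a5 and Col15a1), beside 38.2% of all genes tested. The activated mean of Col15a1 lay under the filter, so its lower activated mean follows from it. Col4a1 and Col4a2, which together form the type IV collagen of nearly all basement membranes, were both lower in activated cells. The Col4a1 signal (1452035_at) was 1119, 1306, 615 and 557 in activated, 3358, 4162, 3619 and 3951 in quiescent and 5246, 4448, 5507 and 5720.5 in non-myogenic cells. The Col4a2 signal (1424051_at) was 503, 553, 318 and 335 in activated, 1011, 1137, 985 and 1186 in quiescent and 3699.9, 3331, 3808 and 3707 in non-myogenic cells.

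No 2 groups overlapped for either gene, and activated arrays 1 and 2 lay above activated arrays 3 and 4 for both. Between activated and quiescent cells Col4a1 changed by -2.14 ± 0.21 (-1.62 on the small-sample arrays and -2.66 on the two-cycle arrays) and Col4a2 by -1.34 ± 0.16 (-1.0 on the small-sample arrays and -1.68 on the two-cycle arrays), with adjusted p of 8.45e-07 and 5.51e-06. Between quiescent and non-myogenic cells Col4a1 changed by -0.56 ± 0.21 and Col4a2 by -1.80 ± 0.16 (adjusted p = 0.04 and 8.56e-07). The Col4a1 call was lost when any 1 array was left out among quiescent arrays 1, 2 and 3 and non-myogenic arrays 2, 3 and 4 (changes of -0.62 to -0.45, adjusted p of 0.0517 to 0.096), and with the replicate number as a block it was -0.67 (adjusted p = 0.0524). A second Col4a1 probe set, 1426348_at, changed by -1.07 ± 0.28 in this step (limma adjusted p = 0.00617 with every probe set tested), so the size depends on the probe set.

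Col4a1 less Col4a2 was 0.71 to 1.22 in activated, 1.72 to 1.86 in quiescent and 0.42 to 0.62 in non-myogenic cells. It changed by -0.80 between activated and quiescent and by 1.27 between quiescent and non-myogenic cells, both with an adjusted p of 0.0476, and quiescent cells lay above both other groups. With the other Col4a1 probe set, 1426348_at, the changes were -1.01 and 0.81 in the same directions, each at an unadjusted p of 0.0286.

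The unequal change is shown beside the sequence that the 2 genes share. They are read in opposite directions from starts 21 bases apart on chromosome 8, so their RefSeq windows overlap by 78 bases, marked in capitals and written in Col4a2 as the reverse complement of Col4a1. The shared stretch holds GGGCGG, and both windows hold CCAAT.
Col4a1 (chr8:11312777-11313076, minus strand, GRCm38.p6): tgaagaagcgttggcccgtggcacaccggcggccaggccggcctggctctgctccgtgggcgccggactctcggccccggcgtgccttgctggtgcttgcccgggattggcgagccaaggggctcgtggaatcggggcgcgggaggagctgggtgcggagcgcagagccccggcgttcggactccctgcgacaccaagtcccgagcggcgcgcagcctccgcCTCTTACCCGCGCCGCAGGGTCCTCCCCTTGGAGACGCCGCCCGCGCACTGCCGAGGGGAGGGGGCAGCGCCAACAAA
Col4a2 (chr8:11312555-11312854, plus strand, GRCm38.p6): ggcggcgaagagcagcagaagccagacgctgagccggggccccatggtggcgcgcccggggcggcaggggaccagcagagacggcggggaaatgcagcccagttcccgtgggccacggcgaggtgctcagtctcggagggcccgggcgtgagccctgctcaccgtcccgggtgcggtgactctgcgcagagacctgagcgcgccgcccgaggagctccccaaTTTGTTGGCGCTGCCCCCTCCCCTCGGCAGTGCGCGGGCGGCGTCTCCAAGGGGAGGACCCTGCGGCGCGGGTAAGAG

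Col4a5, a type IV chain of the more specialised networks, was near the filter in quiescent cells. Its signal (1425476_at) was 4.43, 15.0, 2.78 and 4.70 in activated, 45.2, 37.8, 48.8 and 38.7 in quiescent and 806, 482, 479 and 538 in non-myogenic cells. The changes were -1.45 ± 0.18 for activated against quiescent and -3.41 ± 0.18 for quiescent against non-myogenic cells (adjusted p = 7.18e-06 and 5.44e-09). With the other Col4a5 probe set, 1425475_at, they were -0.52 ± 0.17 and -2.23 ± 0.18, so the sizes depend on the probe set. Col4a5 was tested through its non-myogenic signal alone, so its lower quiescent mean follows from the filter.

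Col15a1 and Col18a1 encode the multiplexins, collagens that carry heparan or chondroitin sulfate chains at the border of basement membranes, and mice without Col15a1 develop a muscle disease. The Col15a1 signal (1448755_at) was 18.6, 4.13, 5.82 and 4.37 in activated, 315, 828, 423 and 507 in quiescent and 1384, 528, 715 and 1061 in non-myogenic cells. All activated arrays lay far below the quiescent ones, a log2 change of -4.49 ± 0.30 (adjusted p = 2.16e-08, -4.40 on the small-sample arrays and -4.59 on the two-cycle arrays). Quiescent and non-myogenic arrays overlapped, and the change of -0.91 ± 0.30 (adjusted p = 0.0222) lost its call without quiescent array 3 (-0.92, 0.0503) and without non-myogenic array 1 (-0.70, 0.117) or array 4 (-0.79, 0.0593). The call was also lost in the limma fits with no kit term (-0.81, 0.0595) and on the two-cycle arrays alone (-0.65, 0.0538). On the small-sample arrays, with 1 non-myogenic array, the change was -1.41.

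Col18a1, which yields the fragment endostatin, was not called between activated and quiescent cells. Its signal (1426955_at) was 188, 978, 635 and 577 in activated, 299.96, 427, 417 and 400.1 in quiescent and 901, 842, 1043 and 798 in non-myogenic cells. Activated array 1 lay below every quiescent array and the other 3 activated arrays above them. The log2 change of 0.41 ± 0.35 was not called (adjusted p = 0.31), and it was 0.89 with an adjusted p of 0.00166 when activated array 1 was left out. The other Col18a1 probe set, 1418237_s_at, had 174, 1047, 269 and 254 in activated and 257, 415, 215 and 202 in quiescent cells. There the change was 0.35 ± 0.38 (limma adjusted p = 0.424 with every probe set tested), so the order of the arrays depends on the probe set. Against non-myogenic cells, quiescent cells were lower by a log2 change of -1.13 ± 0.36 (adjusted p = 0.0171), a call lost without non-myogenic array 1 (-1.02, 0.0683).

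Col7a1, the anchoring fibril chain of skin, had 63.8, 87.96, 70.9 and 79.4 in activated, 55.8, 75.0, 72.8 and 35.4 in quiescent and 63.1, 17.4, 28.0 and 27.6 in non-myogenic cells (1419613_at). It was higher in activated than in non-myogenic cells by a log2 change of 0.87 ± 0.23 (adjusted p = 0.00381), with 0.21 on the small-sample arrays and 1.21 on the two-cycle arrays, where the first of these was not called (adjusted p = 0.601). It was not called in the other comparisons. Col7a1 was tested through the satellite cell groups alone, so its lower non-myogenic mean follows from the filter. 

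**Figure D2:**
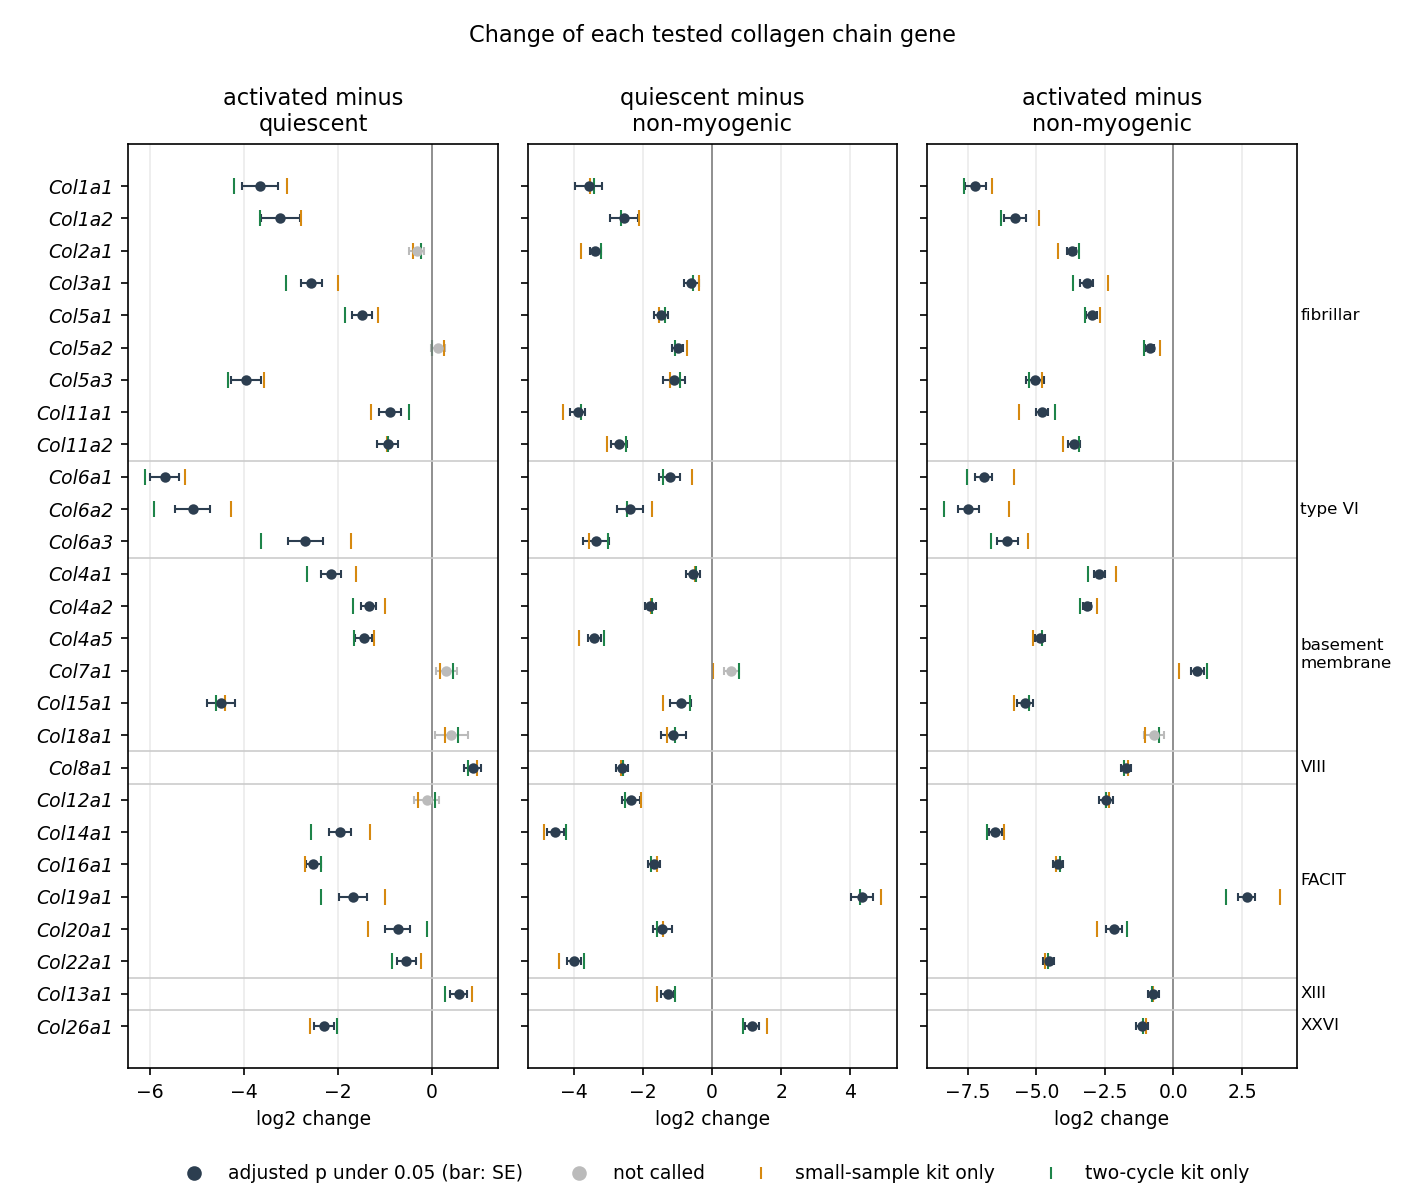
Log2 change of each tested collagen chain gene with its SE, for activated minus quiescent, quiescent minus non-myogenic and activated minus non-myogenic cells from left to right, with dark points called at an adjusted p under 0.05. Ticks mark the change within each labelling kit. Col6a1 reaches -5.68 in the left panel and Col19a1 4.34 in the middle panel.

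Among the short network-forming chains only Col8a1, of the hexagonal lattices found in vessel walls and the cornea, was tested. Its signal (1418440_at) was 211, 139, 102 and 114 in activated, 105, 60.5, 50.1 and 64.8 in quiescent and 575, 484, 364 and 398 in non-myogenic cells. It rose in activated against quiescent cells by a log2 change of 0.87 ± 0.18 (adjusted p = 0.000646, 0.97 on the small-sample arrays and 0.77 on the two-cycle arrays), although quiescent array 1 overlapped the activated arrays. It was lower in quiescent than in non-myogenic cells by a log2 change of -2.61 ± 0.18 (adjusted p = 8.14e-08). A second probe set, 1418441_at, lay under the filter at 1.80 to 19.7 in activated, 1.17 to 5.17 in quiescent and 6.46 to 43.3 in non-myogenic cells.

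The FACIT chains had 5 of 6 tested genes lower in activated than in quiescent cells, beside 38.2% of all genes tested, with Col12a1 not called. In quiescent against non-myogenic cells 5 were lower and Col19a1 was higher, beside 26.6% lower and 26.4% higher among all genes tested. Of these 5, Col12a1, Col20a1 and Col22a1 were tested through their non-myogenic signal alone, so their lower quiescent means follow from the filter. Col14a1 and Col16a1 had activated means under the filter, so their lower activated means follow from it. Col14a1, which binds the surface of type I fibrils, was near the pseudocount in activated cells. Its signal (1427168_a_at) was 26.5, 27.6, 6.22 and 11.7 in activated, 122, 64.9, 124 and 127 in quiescent and 3011, 2492, 2263 and 3143 in non-myogenic cells. With a log2 change of -4.54 ± 0.25 (adjusted p = 8.01e-09) it had the largest fall of the 27 probe sets used for this comparison (the other Col1a1 probe set, 1423669_at, fell by more, -5.84 ± 0.27), and activated cells lay lower still by a log2 change of -1.95 ± 0.24 (adjusted p = 9.01e-06, -1.32 on the small-sample arrays and -2.57 on the two-cycle arrays).

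Quiescent array 2 had the lowest signal of its group for Col14a1, and likewise for Col1a1, Col1a2, Col5a1 and Col6a3. It was also the lowest quiescent array for 9 of the 11 fibroblast markers, with Pdgfra at 199, 21.9, 227 and 187 over the 4 quiescent arrays. Over the 27 tested chains it was the lowest in 8 and the highest in 11. The part of fibroblast RNA in these values was not tested.

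Col22a1, a chain found at the junction of muscle and tendon, had 2.47, 2.11, 0.79 and 12.1 in activated, 5.18, 5.68, 20.1 and 23.8 in quiescent and 423, 428, 567 and 417 in non-myogenic cells (1453084_s_at). Quiescent cells were lower than non-myogenic cells by a log2 change of -4.00 ± 0.20 (adjusted p = 3.47e-09), and tendon cell markers such as Tnmd, at 66.9 to 153 in quiescent and 3506 to 5540.1 in non-myogenic cells, moved with it. The Col22a1 change of -0.54 ± 0.20 in activated against quiescent cells was lost in 10 alternative settings, without activated array 3 (-0.36, adjusted p = 0.0997) and without quiescent array 3 (-0.49, 0.0634) or array 4 (-0.44, 0.084) among them. Both groups lay near or under the pseudocount.

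Col16a1 (1427986_a_at), a FACIT chain of skin and smooth muscle, had 13.9 to 29.0 in activated, 139 to 285 in quiescent and 509.9 to 739 in non-myogenic cells. Its log2 changes were -2.52 ± 0.16 for activated against quiescent cells and -1.69 ± 0.17 for quiescent against non-myogenic cells. Col12a1 (1427391_a_at), a fibril-surface chain of tendon and muscle, had 7.43 to 39.3 in activated, 11.6 to 42.4 in quiescent and 145 to 222 in non-myogenic cells. Col20a1 (1425234_at) had 7.28 to 28.3 in activated, 11.3 to 50.8 in quiescent and 70.8 to 156 in non-myogenic cells, and its change of -0.73 ± 0.27 in activated against quiescent cells was lost in 15 alternative settings, including the loss of any 1 of activated arrays 1, 2 and 3 or quiescent arrays 1, 2 and 4 (-0.69 to -0.58, adjusted p of 0.0667 to 0.0955). Another Col20a1 probe set, 1425235_s_at, was called at -1.22 ± 0.25 (adjusted p = 0.000616), with 2.42 to 7.65 in activated and 8.04 to 44.8 in quiescent cells.

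Col19a1 was higher in both satellite cell groups than in non-myogenic cells. It was tested through the satellite cell groups alone, so its lower non-myogenic mean follows from the filter. This FACIT chain is known in mice from skeletal muscle, smooth muscle of the oesophagus and brain. Its signal (1421698_a_at) was 227, 212, 41.4 and 58.4 in activated, 377, 541, 284 and 340.4 in quiescent and 1.17, 3.21, 1.86 and 1.60 in non-myogenic cells. All satellite cell arrays lay above all non-myogenic arrays, where the signal was under the pseudocount, and all quiescent arrays lay above all activated arrays.

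On the log2 scale Col19a1 was higher in quiescent than in non-myogenic cells by a log2 change of 4.34 ± 0.31 and in activated than in non-myogenic cells by 2.67 ± 0.31 (adjusted p = 8.56e-08 and 2.93e-06), sizes that depend on the pseudocount. It fell by a log2 change of -1.67 ± 0.30 in activated against quiescent cells (adjusted p = 0.000219). This change was -0.99 on the small-sample arrays and -2.35 on the two-cycle arrays. The interaction of kit and group in limma passed (adjusted p = 0.015), but it covers all 3 groups at once and cannot be assigned to this step. Activated arrays 1 and 2 lay above activated arrays 3 and 4. Among the 7 myoblast markers the same 2 arrays also had more Myog, at 4532, 1775, 444 and 369 over the 4 activated arrays, and more Chrng, Mymk, Cdh15 and Des, but less Myod1, at 3841, 3305, 5541 and 5829, and less Chrna1. The part of kit or differentiation in this split was not tested. A second Col19a1 probe set, 1430676_at, lay under the filter at 10.3 to 13.2 in activated, 18.8 to 74.4 in quiescent and 4.46 to 31.4 in non-myogenic cells.

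The Col19a1 window is shown because this gene had the largest rise in quiescent over non-myogenic cells. It holds none of the 5 motifs searched (CCAAT and GGGCGG as above, the AP-1 type TGANTCA, the TATA box TATAAA, which 13.6% of all windows hold, and the E-box CAGCTG, which 16.3% hold), so no letter is in capitals. The gene's neighbour on chromosome 1 among the members is Col9a1, which lay under the filter.
Col19a1 (chr1:24587388-24587687, minus strand, GRCm38.p6): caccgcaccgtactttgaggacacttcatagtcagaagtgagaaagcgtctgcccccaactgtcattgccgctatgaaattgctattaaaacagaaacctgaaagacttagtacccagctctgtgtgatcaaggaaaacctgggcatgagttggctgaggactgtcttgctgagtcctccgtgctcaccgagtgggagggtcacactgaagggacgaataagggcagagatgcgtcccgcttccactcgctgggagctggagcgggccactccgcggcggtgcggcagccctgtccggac

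Col26a1, a short collagen with an EMI domain, was also highest in quiescent cells. Its signal (1425310_a_at) was 30.9, 26.6, 19.7 and 24.1 in activated, 179, 336, 118 and 147 in quiescent and 72.1, 60.1, 54.7 and 82.6 in non-myogenic cells. No 2 groups overlapped. Activated cells were lower than quiescent cells by a log2 change of -2.30 ± 0.21 (adjusted p = 4e-07, -2.59 on the small-sample arrays and -2.01 on the two-cycle arrays), and quiescent cells were higher than non-myogenic cells by a log2 change of 1.16 ± 0.21 (adjusted p = 0.000464, 1.59 on the small-sample arrays and 0.88 on the two-cycle arrays).

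Of the membrane-spanning chains only Col13a1, known from the neuromuscular junction, was tested. Its signal (1422866_at) was 96.6, 62.4, 69.6 and 49.4 in activated, 31.6, 42.0, 54.7 and 38.0 in quiescent and 141, 100.3, 119 and 119 in non-myogenic cells. It was higher in activated than in quiescent cells by a log2 change of 0.57 ± 0.18 (adjusted p = 0.013), with overlapping arrays, and this call was lost without activated array 1 (0.43, adjusted p = 0.0512) and on the two-cycle arrays alone. Quiescent cells were lower than non-myogenic cells by a log2 change of -1.29 ± 0.19 (adjusted p = 6.47e-05). Col13a1 was tested through its activated and non-myogenic signals alone, so its lower quiescent mean follows from the filter.

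Set side by side, activated and non-myogenic cells lay furthest apart for the chains of types VI, I and XIV. The log2 change was -7.47 ± 0.39 for Col6a2, -7.22 ± 0.39 for Col1a1, -6.91 ± 0.31 for Col6a1, -6.49 ± 0.25 for Col14a1, -6.06 ± 0.38 for Col6a3 and -5.77 ± 0.41 for Col1a2, whose array values are given above. With the other probe sets it was -5.96 ± 0.23 for Col6a2, -7.97 ± 0.27 for Col1a1, -6.03 ± 0.21 for Col14a1 and -7.03 ± 0.37 for Col1a2. The order of these chains therefore depends on the probe set. Col8a1 and Col26a1, which differed in direction between the other comparisons, were both lower in activated cells, by log2 changes of -1.74 ± 0.18 and -1.14 ± 0.21. Median changes were -6.91 over the 3 type VI chains, -3.71 over the 9 fibrillar chains, -3.33 over the 6 FACIT chains and -2.92 over the 6 basement membrane chains tested. Col18a1 was not called (adjusted p = 0.0841), and with activated array 2 left out it was, at -1.04 (adjusted p = 0.00469). Its other probe set, 1418237_s_at, was called at -0.93 ± 0.39 (limma adjusted p = 0.0443 with every probe set tested). Activated signals near or under the pseudocount, those of Col1a1 and Col14a1 and of Col6a2 on activated arrays 3 and 4, make the size of their changes depend on it.

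The 9 genes under the filter were not tested, and the values of these are descriptions. Col17a1 (1418799_a_at), the transmembrane collagen of hemidesmosomes, had 3.96, 10.5, 2.65 and 1.75 in activated, 49.3, 36.0, 72.8 and 117 in quiescent and 25.0, 8.62, 19.5 and 33.1 in non-myogenic cells, so its quiescent arrays lay above all others. Col4a3 had 3.71 to 14.0 in activated, 10.5 to 27.6 in quiescent and 37.3 to 68.1 in non-myogenic cells. Col25a1, a membrane collagen made by muscle that motor nerves need in mice, had 11.7 to 39.2 in activated, 11.1 to 78.4 in quiescent and 18.2 to 56.3 in non-myogenic cells. Col9a1, a cartilage FACIT chain, had 15.96 to 52.8, 18.7 to 83.2 and 18.1 to 45.9 in the same order. Col4a4, Col4a6, Col9a2, Col9a3 and Col10a1 had no group mean at or above the filter.

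**Figure D3:**
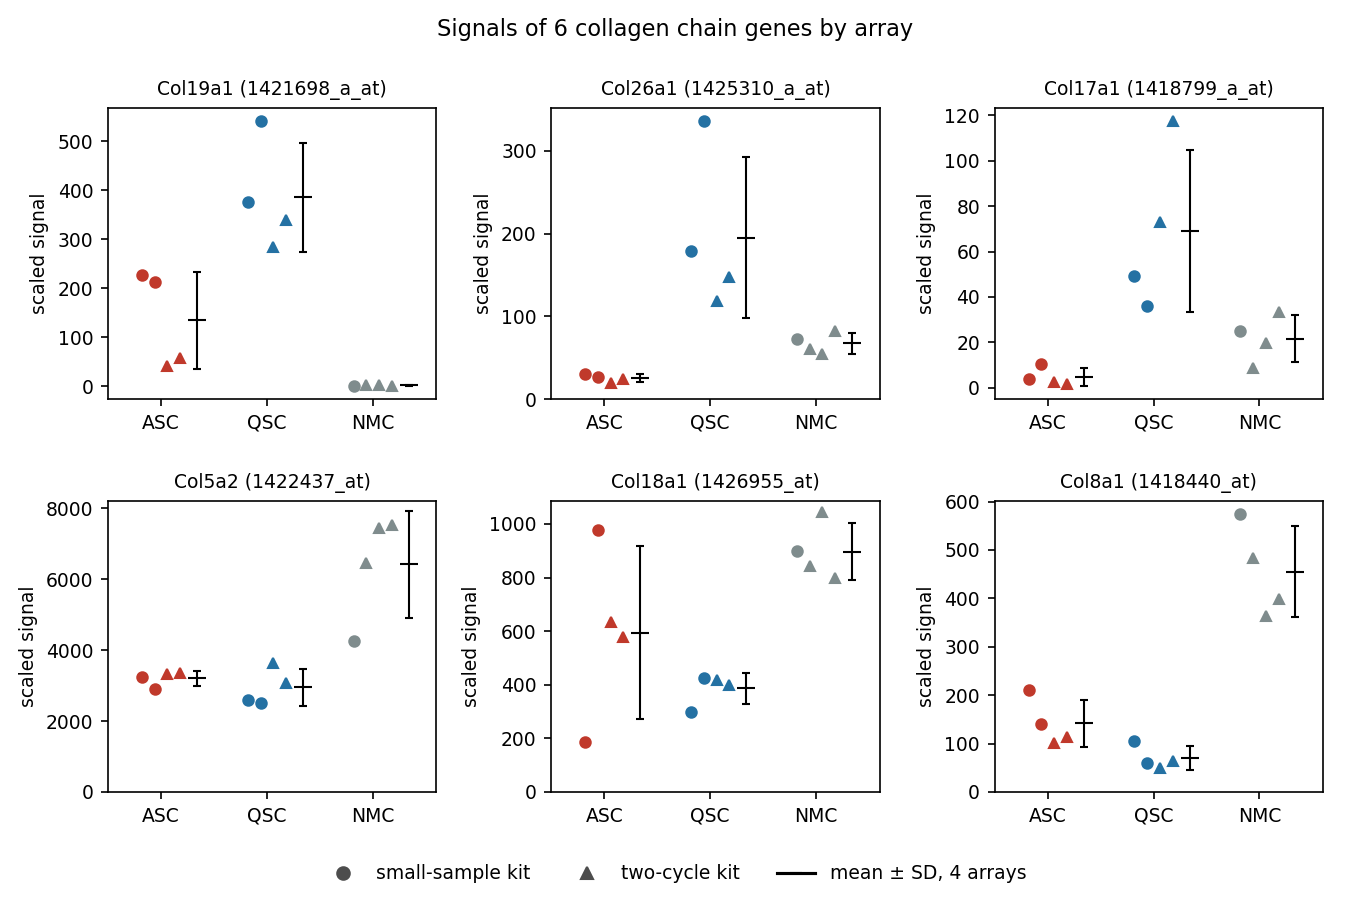
Scaled signal of 6 collagen chain genes on each activated (ASC), quiescent (QSC) and non-myogenic (NMC) array, with the labelling kit as the symbol and the mean ± SD of the 4 arrays beside the points. Col19a1, Col26a1 and Col17a1 are highest in quiescent cells, Col5a2 overlaps between activated and quiescent cells, Col18a1 has activated array 1 apart at 188, and Col8a1 is higher in activated than in quiescent cells.

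Genes that fold, modify and export procollagen in the cell changed in both directions. Of 23 listed genes 18 were tested, and in activated against quiescent cells 7 fell, 3 rose and 8 were not called, with a median log2 change of -0.12. These shares are close to the 38.2% lower of all genes tested and below the 31.8% higher, and say nothing particular about the list. The prolyl 4-hydroxylase gene P4ha2, whose product stabilises the triple helix, fell by a log2 change of -1.64 ± 0.14, with signals of 89.9, 124, 110.4 and 117 in activated and 416, 418, 327 and 339 in quiescent cells. The prolyl 3-hydroxylase family gene P3h3 changed by -1.97 ± 0.19, the export receptor gene Mia3 by -1.38 ± 0.13 and the collagen galactosyltransferase gene Colgalt1 by -0.84 ± 0.14. The activated mean of P3h3 lay under the filter, so its lower activated mean follows from it.

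The 3 that rose were Serpinh1, Creb3l1 and P3h4. Serpinh1, which encodes the collagen chaperone HSP47, had 1622, 1287, 2575 and 2397 in activated, 1079.9, 745, 1570.4 and 1681 in quiescent and 2415, 4824, 4434 and 5395 in non-myogenic cells. It was higher in activated than in quiescent cells by a log2 change of 0.64 ± 0.15 (adjusted p = 0.00156, 0.68 on the small-sample arrays and 0.61 on the two-cycle arrays), with overlapping arrays. Creb3l1, a factor that activates procollagen genes in bone, changed by 0.95 ± 0.19 and P3h4 by 0.67 ± 0.15. In quiescent against non-myogenic cells 14 of the 18 were lower and none higher, with 4 not called and a median of -1.23, beside 26.6% lower and 26.4% higher among all genes tested, led by the lysyl hydroxylase gene Plod1 (-2.06 ± 0.17), Creb3l1 (-2.43 ± 0.20), P4ha2 (-1.63 ± 0.14) and Serpinh1 (-1.53 ± 0.15).

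Of 17 genes for cleavage, cross-linking and fibril assembly outside the cell 10 were tested, and 8 of them fell, 1 rose and 1 was not called in activated against quiescent cells (median -1.20), beside 38.2% lower and 31.8% higher among all genes tested. Of the 8, the lysyl oxidase gene Lox (-1.11 ± 0.39, adjusted p = 0.0199) changed by -0.22 on the small-sample arrays (adjusted p = 0.629), and its call was lost without activated array 3 (-0.82, 0.0763) or 4 (-0.91, 0.0686) or quiescent array 3 (-0.94, 0.0675). Loxl3 lost its call without activated array 3 (-0.43, 0.051). The related gene Loxl1, whose product cross-links elastin and collagen, changed by -4.22 ± 0.25, and the fibril-binding proteoglycan genes Dcn, Lum and Fmod by -5.84 ± 0.32, -4.61 ± 0.39 and -4.22 ± 0.26. Dcn and Lum are also in the fibroblast marker list and Fmod in the tendon cell list. The activated means of Dcn, Lum and Fmod lay under the filter, so their lower activated means follow from it. Pcolce2, an enhancer of procollagen cleavage, rose, with 697, 785, 1153 and 1096 in activated, 219.6, 202, 247 and 249 in quiescent and 2848, 4145, 4084 and 4187 in non-myogenic cells. All its activated arrays lay above all quiescent arrays, a log2 change of 1.93 ± 0.13 (adjusted p = 1.81e-08, 1.74 on the small-sample arrays and 2.12 on the two-cycle arrays). All 10 were lower in quiescent than in non-myogenic cells (median -2.70), beside 26.6% of all genes tested. In this comparison Pcolce2 changed by -3.85 ± 0.13, Fmod by -5.12 ± 0.27, Pcolce by -3.62 ± 0.26 and Loxl3 by -2.43 ± 0.17.

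Of 12 collagen receptor and uptake genes 6 were tested. In activated against quiescent cells the collagen uptake receptor gene Mrc2 fell by a log2 change of -3.31 ± 0.17, the integrin chain gene Itgb1 rose by a log2 change of 0.74 ± 0.20 and the proteoglycan gene Cspg4 by 0.74 ± 0.22, and 3 were not called. Of all genes tested 38.2% were lower and 31.8% higher. The Itgb1 change was 1.25 on the small-sample arrays and 0.24 on the two-cycle arrays, and that of Cspg4 1.01 on the small-sample arrays and 0.48 on the two-cycle arrays, and neither was called on the two-cycle arrays alone (adjusted p = 0.302 and 0.137). Ddr1, a receptor tyrosine kinase that binds collagen, had 555, 363, 283 and 256 in activated, 438, 163, 764 and 439 in quiescent and 62.4, 85.2, 58.5 and 42.1 in non-myogenic cells. It was the only one of the 6 that was higher in quiescent than in non-myogenic cells, by a log2 change of 2.48 ± 0.38 (adjusted p = 0.000107). The other 5 were lower, beside 26.6% lower and 26.4% higher among all genes tested. The lower activated mean of Mrc2 and the lower quiescent mean of Adgrg1, 1 of the 5, lay under the filter and follow from it. Of 12 collagen-degrading enzyme genes 6 were tested and all 6 fell in activated cells (median -1.82), beside 38.2% of all genes tested, with the gelatinase gene Mmp2 at -4.44 ± 0.30, Fap at -3.68 ± 0.27, Mmp14 at -1.85 ± 0.33 and Ctsk at -1.79 ± 0.18. In quiescent against non-myogenic cells 5 of them were lower and Ctsl was not called (median -2.48), beside 26.6% lower among all genes tested. Fap and Ctsk had activated means under the filter, so their lower activated means follow from it. Mmp3 was tested through its non-myogenic signal alone, so its lower quiescent mean follows from the filter.

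**Figure D4:**
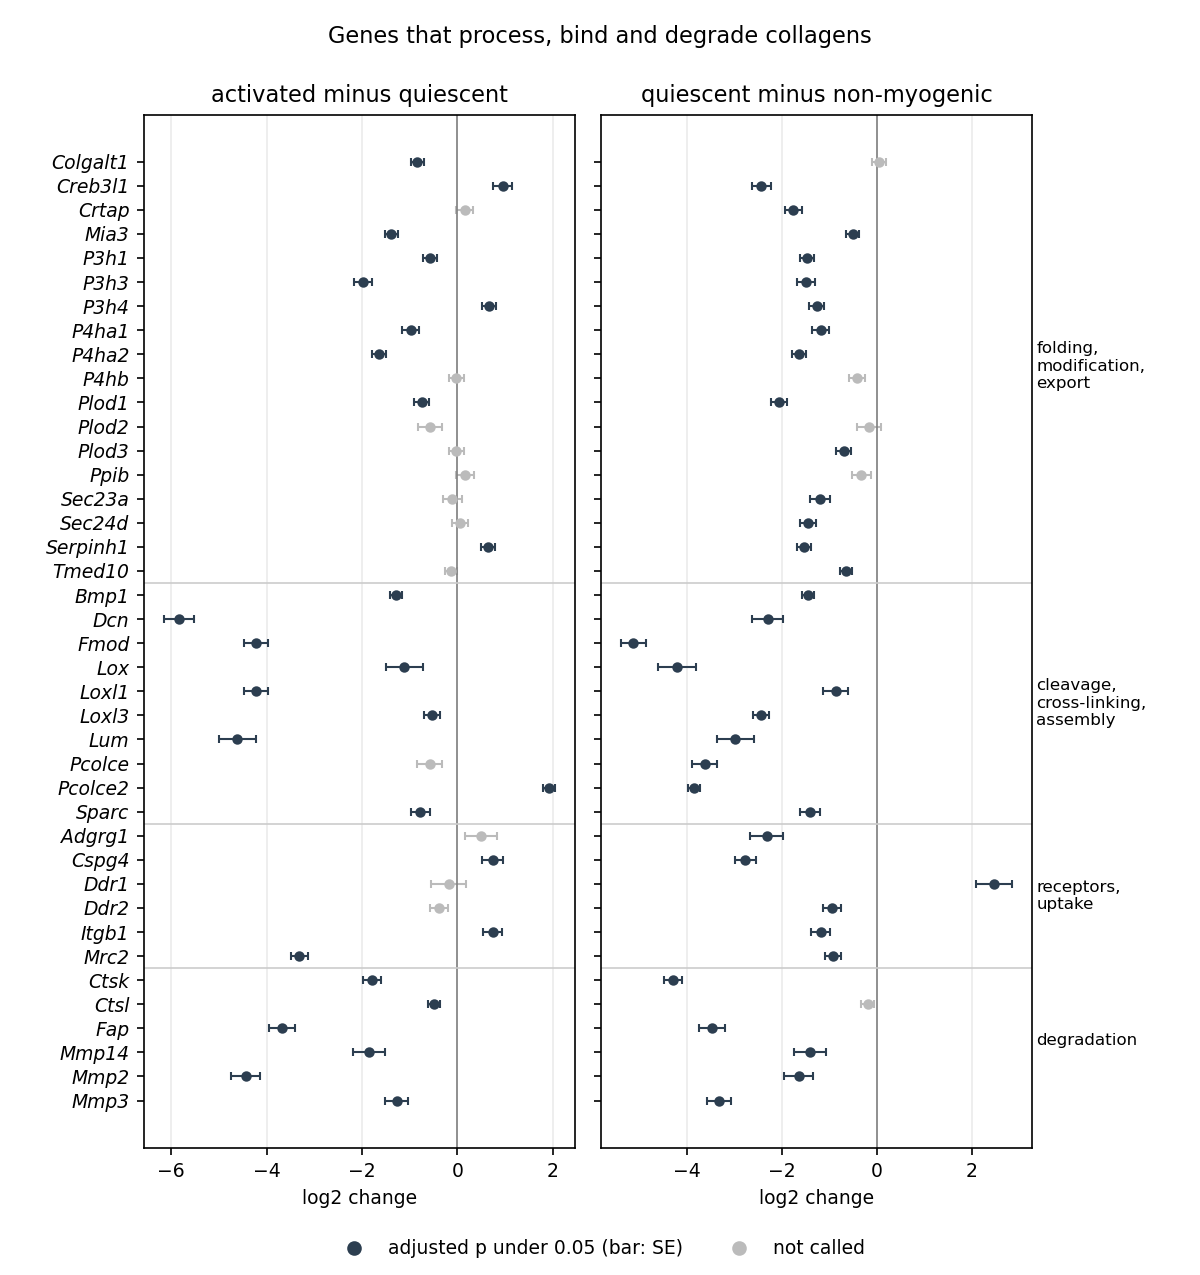
Log2 change with its SE for the 40 tested genes that fold and export, cleave and cross-link, bind or degrade collagens, for activated minus quiescent cells on the left and quiescent minus non-myogenic cells on the right. Dark points are called at an adjusted p under 0.05. Pcolce2 lies at 1.93 on the left and -3.85 on the right, and Ddr1 is the only gene called above 0 on the right.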

How the data were processed

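Total RNA of 12 samples was hybridised to Affymetrix Mouse 430A arrays, 1 array a sample. The authors deposited 1 linear intensity per probe set and array, made with MAS5 per the submitters' processing notes (version and settings: not given in the sources used here). Detection calls were not used here, so single genes have no background limit. The tests used the 20380 of 22690 probe sets that the platform's annotation table gives 1 gene, which omits 691 probe sets of several genes, 1555 without a listed gene and 64 controls. The members and the lists of classes, processing genes and markers were chosen with earlier results of these data known.

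Each array was scaled to a mean, trimmed by 2% at each tail, of 235.14, and log2(signal + 14.696) was taken, the pseudocount being 1/16 of that mean. A gene was represented by the probe set whose log2 signal averaged highest over the 12 arrays, which for Col1a1 and Col20a1 is not the one with the highest linear mean, and was tested if that set's mean linear signal was 47.028 or more, 0.2 of the trimmed mean. The 7960 genes that passed entered 1 limma model (version 3.58.1, R 4.3.3) of the 12 arrays with group and labelling kit as terms, and p-values were adjusted by Benjamini-Hochberg over all of them. Medians over the members are descriptions with no test. Differences between chains of 1 protein were compared with exact permutation tests over arrays, without the kit, a test added after seeing the data. The kit-by-group interaction and a model that omits activated arrays 1 and 2 were also added then. The pipeline was tested on simulated data with known changes.

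Promoter windows came from the RefSeq promoter table on GRCm38.p6, which held 27 of the 36 members by symbol. Per-array values are given for up to 6 called members with the largest change in each comparison and direction and for the strongest member of each class, and up to 4 called genes with the smallest adjusted p are named from each processing list and direction. Col4a2, Col5a2, Col17a1 and Col18a1, and the processing and marker genes with array values, were chosen after their values were seen. Alternatives were a model without kit, either kit by itself, pseudocounts and filters of other sizes, unscaled, median-centred or quantile-normalized signals, probe sets averaged or tested singly, array weights, a fit of only 2 groups, a replicate block, and 1 array dropped at a time. Figures were drawn with Python 3.11.15 and matplotlib 3.10.9.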

Additional observations from a re-analysis of the deposited data

Results flagged for a closer look

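In 8 of the 81 groups of 4 arrays (27 tested chains in 3 groups) 1 array lay apart from the other 3 by Dixon's test at the 95% level, where chance gives about 1 in 20. Values here are log2(signal + 14.696). In activated cells array 1 was apart and high for Col15a1, at 5.06 with the others at 4.23 to 4.36, and for Col6a3, at 7.71 with the others at 6.31 to 6.52. In quiescent cells array 2 was apart and low for Col14a1, at 6.31 with the others at 7.10 to 7.15, and for Col5a1, at 9.84 with the others at 10.73 to 10.89. In non-myogenic cells array 1, the one made with the small-sample kit, was apart and low for Col1a2, at 12.86 with the others at 13.92 to 14.13, for Col3a1, at 12.61 with the others at 13.76 to 13.98, and for Col6a3, at 12.32 with the others at 13.02 to 13.12. These low values hold after scaling only. In the deposited signals the same array was the highest of its group for Col6a3, at 10499.7 with the others at 7157 to 8639.7, and lay within the range of the others for Col1a2 and Col3a1. Non-myogenic array 3 was apart and high for Col22a1, at 9.18 with the others at 8.76 to 8.79.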

How the results depend on the processing

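The number of lower and of higher chains kept within 1.5 times its main value in most alternatives. For activated against quiescent cells the median of -1.49 became -1.85 on the two-cycle arrays, -1.80 and -1.26 with a pseudocount of 1/64 and 1/4 of the trimmed mean, -0.92 with no filter, -2.04 with the filter at 0.5, -1.19 with no scaling, -1.08 with median centring and -1.81 without the 2 small-sample activated arrays. The 2 higher chains became 1 at the filter of 0.5 and 5 with median centring (Col5a2, Col7a1 and Col18a1 gained calls), which moved the median of all genes from -0.11 to 0.30, as no scaling moved it to 0.14. With every probe set tested, 31 probe sets of 41 were lower. For quiescent against non-myogenic cells the median of -1.69 became -1.47 with the 1/4 pseudocount and -1.19 with no filter, the 2 higher chains became 1 at the filter of 0.5, and 38 of 41 probe sets were lower. No scaling moved the median of all genes there to -0.32. For activated against non-myogenic cells the median of -3.63 became -4.01 on the small-sample arrays, -4.53 and -2.98 with the 1/64 and 1/4 pseudocounts, -2.58 with no filter, -4.67 at the filter of 0.5, -3.25 with no scaling, -3.20 with median centring and -3.40 with quantile normalization. The 2 higher chains became 1 on the small-sample arrays and at the filter of 0.5, and 38 of 41 probe sets were lower. Median centring moved the median of all genes there from -0.07 to 0.36. With 1 array left out the numbers of lower chains ran from 18 to 21, from 21 to 24 and from 24 to 25 in the 3 comparisons, and the medians from -1.64 to -1.41, -1.79 to -1.60 and -3.77 to -3.46. The single gene that reversed was Col5a2 in activated against quiescent cells, at -0.75 with probe set 1450625_at. Among single genes 74 values lost and 20 gained a call over the alternatives, and 2191 kept direction and call. Beyond the losses given above, Col5a2 in activated against non-myogenic cells lost its call on the small-sample arrays (-0.48, adjusted p = 0.162), and Col11a2 in activated against quiescent cells, Col13a1 in activated against non-myogenic cells and Col26a1 in activated against non-myogenic cells lost calls. Without non-myogenic array 1, Col2a1 in activated against quiescent cells gained a call (-0.32, adjusted p = 0.0427), and so did Col7a1 in quiescent against non-myogenic cells (0.84, 0.0101), which also gained one without quiescent array 1 (0.63, 0.0477) or 4 (0.72, 0.0314). Col18a1 in activated against non-myogenic cells gained a call without activated array 2 (-1.04, 0.00469). Causes were not tested, apart from those the settings' construction gives (fewer genes or arrays).

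With the replicate number as a block beside the kit, 20 chains were lower in activated than in quiescent cells, 22 in quiescent than in non-myogenic cells and 25 in activated than in non-myogenic cells, with medians of -1.49, -1.73 and -3.63. The calls lost with the block were those of Col3a1 and Col4a1 between quiescent and non-myogenic cells. Deviations of same-numbered arrays from their group means correlated at r of 0.146 to 0.279 for the 4 activated and quiescent pairs and of -0.374 to 0.392 over all pairs. Activated and quiescent arrays 1 and 2 share a kit, as do 3 and 4, and after the kit means were taken out the 4 pairs correlated at r of -0.512 to -0.229. Deviations from such a fit cancel out within each group and each kit, which pushes r below that of independent arrays. Arrays of the same kit with different numbers were not compared. These correlations therefore cannot show whether the numbers pair the samples, and the main model has no term for them.

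MAS5 signals hold no depth, and the 4 arrays a group limit the precision. Signals near or under the pseudocount have no measured order, and the non-myogenic signals of Col1a2 and Col3a1 lay near the highest signals of their arrays.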
